A study of Mus musculus with 12 samples.

Results

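The genes of glycolysis, gluconeogenesis and fructose breakdown were followed in mouse kidneys 24 h after contrast-induced acute kidney injury. The set holds 31 genes, chosen by name, and each of them had a row both among the 32199 genes of the PAD4 table and among the 31719 genes of the IL-33 table. Glycolysis splits glucose into pyruvate, lactate dehydrogenase turns pyruvate into lactate and back, and gluconeogenesis runs most of the route in reverse to make glucose. In the kidney the proximal tubule makes glucose from lactate and other substrates and takes up and breaks down fructose, while the distal segments burn glucose. After injury, proximal tubule cells are known to lose gluconeogenic enzymes and to use more glycolysis.

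The 12 libraries were poly(A)-selected, strand-specific RNA-seq of kidney from male mice 8 weeks old at the start, 1 mouse per library by the labels' wording, although nothing says which mice were kept or handled together, so p-values measure the spread between these libraries. All mice, wild type included, had lost a kidney by surgery, recovered for 3 weeks, went without water for 24 h, and were given the loop diuretic furosemide, followed after 20 min by iodixanol, an iodinated X-ray contrast agent, into the tail vein. There were 4 groups of 3 mice: Padi4 knockout with its own wild type (C57BL/6) libraries in batch 1, here the PAD4 set, and Il33 knockout with its own wild type libraries in batch 2, the IL-33 set. PAD4, encoded by Padi4, citrullinates histones and is needed for neutrophil extracellular traps, and IL-33 is a nuclear alarmin cytokine. No group without contrast injury is analysed here, and the labels do not give the alleles or whether the knockout lines were littermates of the wild type mice. Batch and set coincide, so the tests of knockout against wild type were run within a set.

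Levels are FPKM, the fragments of a transcript per kilobase of its length, scaled to the library's mapped fragments. A change is the knockout mean minus the wild type mean of log2(FPKM + 1), printed with limma's SE after the ± sign, and comes out too small for genes at low FPKM. Within a set the change was read against its own wild type, since the 2 tables were normalized separately. A gene was tested where its mean over the 6 libraries of its set was at least 0.5 FPKM, and rose or fell only where the limma adjusted p (Benjamini-Hochberg over all genes tested in that set) was below 0.05. A p that misses this threshold does not show that the groups were alike. Padi4 was at 0.217, 0.497 and 0.187 FPKM in the Padi4 knockout libraries and at 0.704, 1.06 and 1.67 FPKM in their wild type libraries (adjusted p = 0.0147, or 0.0548 without PAD4 knockout library 3 and 0.0797 without wild type library 3). Il33 was at 1.14, 0.616 and 1.02 FPKM in the libraries labelled IL-33 knockout and at 1.71, 1.13 and 3.64 FPKM in their wild type libraries (adjusted p = 0.099), and passed as lower without wild type library 2 (adjusted p = 0.0348), after quantile normalization (0.0395) and with replicate number blocked (0.0408). These 2 groups overlapped for Il33, and its transcript was not lost, so the libraries are called "labelled IL-33 knockout". Padi4 transcript was not lost in the Padi4 knockout libraries either, although their groups did not overlap. Il33 also fell in the PAD4 set, to 0.889, 1.58 and 1.28 FPKM in knockout, against 3.57, 5.29 and 3.28 FPKM in wild type (limma adjusted p = 0.00208). FPKM summed to 700601 to 812981 per library in the PAD4 set and 385124 to 420279 in the IL-33 set, of which genes of the mitochondrial genome took 52.0% to 60.0% and 24.1% to 29.2%, and the sequencing depth is unknown.

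Other cell types moved with the groups. In bulk tissue, fewer cells of a type and less RNA per cell cannot be told apart. Summed proximal tubule markers came to 10388 to 26589.7 FPKM in PAD4 knockout kidneys and 5211 to 8554 FPKM in wild type, and 15 of 19 tested rose and 0 fell. Colon markers, which a kidney should lack, summed to 120.3 to 228 FPKM in PAD4 knockout kidneys and 409.6 to 622 FPKM in wild type, and 13 of 13 fell. Lung markers summed to 42.4 to 207 FPKM in PAD4 knockout kidneys and 294 to 840.5 FPKM in wild type, and 7 of 7 fell. No marker of these 3 lists was at 0 throughout the PAD4 set. PAD4 knockout library 2 stood apart from the other PAD4 knockout libraries, with the lowest proximal tubule sum of that group (10388 FPKM) and the injury marker Havcr1 at 46.9 FPKM, where libraries 1 and 3 had 0.885 and 1.15 FPKM and the wild type libraries 10.9 to 25.9 FPKM. Red blood cell markers summed to 599 to 926 FPKM in PAD4 knockout kidneys and 1303 to 2505 FPKM in wild type, and 5 of 5 tested fell. Proximal tubule markers in kidneys labelled IL-33 knockout summed to 12313 to 14998 FPKM, against 13551 to 18238 FPKM in wild type, with 15 of 20 higher and 1 lower, and the sums overlapped. Injured tubule markers (Havcr1, Lcn2, Krt20, Vcam1 and Cdkn1a) summed to 28.2 to 47.1 FPKM in kidneys labelled IL-33 knockout and 454 to 1037 FPKM in wild type, and 4 of 5 fell. Macrophage markers summed to 80.3 to 86.3 FPKM in kidneys labelled IL-33 knockout and 22.4 to 41.0 FPKM in wild type, with 7 of 8 higher and 1 lower. Red blood cell markers summed to 1501 to 2341 FPKM in kidneys labelled IL-33 knockout and 873 to 1221 FPKM in wild type, and 5 of 5 tested rose. Colon markers summed to 5.67 to 7.91 FPKM in kidneys labelled IL-33 knockout and 20.4 to 41.3 FPKM in wild type, and Tff3 of that list was at 0. Thick ascending limb markers, of a distal segment, summed to 2794 to 3732 FPKM in kidneys labelled IL-33 knockout and 1499 to 2196 FPKM in wild type, and 7 of 8 rose. In the PAD4 set they summed to 96.8 to 596 FPKM in PAD4 knockout kidneys and 56.6 to 176 FPKM in wild type, with 3 of 8 higher. Among other PAD4 set markers, 6 of 6 of smooth muscle, 5 of 6 of fibroblasts, 4 of 7 of neutrophils, 3 of 8 of macrophages and 2 of 5 of injured tubule fell in PAD4 knockout kidneys, and in the IL-33 set 3 of 6 of fibroblasts rose in kidneys labelled IL-33 knockout. Over all genes tested, 8.89% rose and 8.79% fell in the PAD4 set, and 22.2% rose and 16.8% fell in the IL-33 set. The part of the marker differences in the results that follow was not tested.

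Of the 31 genes, all of which passed the filter, 8 rose and 1 fell in PAD4 knockout kidneys. Among all 13986 genes tested in that set, 8.89% rose and 8.79% fell. The genes that rose were Slc2a5, Aldoa, Ldha, Ldhb, Pck1, Slc37a4, Khk and Glyctk, and the gene that fell was Slc16a1. Without PAD4 knockout library 2, 8 of the 31 genes rose and 2 fell, the second being Hk2. Calls over all genes grew as well, from 1243 higher and 1230 lower to 1770 higher and 1764 lower of 13968 tested. For the kidneys labelled IL-33 knockout, 11 of 30 tested genes rose and 7 fell, where 22.2% of all 14513 genes rose and 16.8% fell. The genes that rose there were Slc2a5, Hk1, Gpi1, Pfkl, Pfkm, Tpi1, Pgk1, Pgam1, Ldha, Ldhb and Glyctk. The genes that fell were Slc2a1, Hk2, Gapdh, Pklr, Slc16a1, Pfkfb3 and Pck1. Slc16a3 was below the filter in the IL-33 set. Slc2a5 and Slc16a3 in the PAD4 set, and Hk2 in the IL-33 set, had a mean of at least 0.5 FPKM in 1 of their 2 groups only, so the filter kept them through the group where they were high. Without them 7 of 29 genes rose and 1 fell in PAD4 knockout kidneys, and 11 of 29 rose and 6 fell in those labelled IL-33 knockout.

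The medians over the genes tested were 0.22 in the PAD4 set, where the median of all genes was 0.02, and 0.19 in the IL-33 set, where it was 0.04. Under other settings the PAD4 set median ran from 0.04 (without PAD4 knockout library 1, all genes -0.06) to 0.33 (without wild type library 3, all genes 0.11). That of the IL-33 set ran from 0.13 (median-of-ratios scaling, all genes -0.01) to 0.27 (rescaled without mitochondrial genes, all genes 0.12). The 2 sets share no library. Slc2a5, Ldha, Ldhb and Glyctk rose in both, Slc16a1 fell in both, and Pck1 rose in PAD4 knockout kidneys and fell in those labelled IL-33 knockout. The difference between the 2 knockout effects, IL-33 set minus PAD4 set, passed for 3 of 30 genes in the positive direction (Pfkl, Pfkm and Tpi1) and for 6 in the negative direction (Aldoa, Gapdh, Pklr, Ldha, Ldhb and Pck1). Over all 13010 genes tested in both sets, 6.18% passed in the positive and 6.23% in the negative direction.

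**Figure D1:**
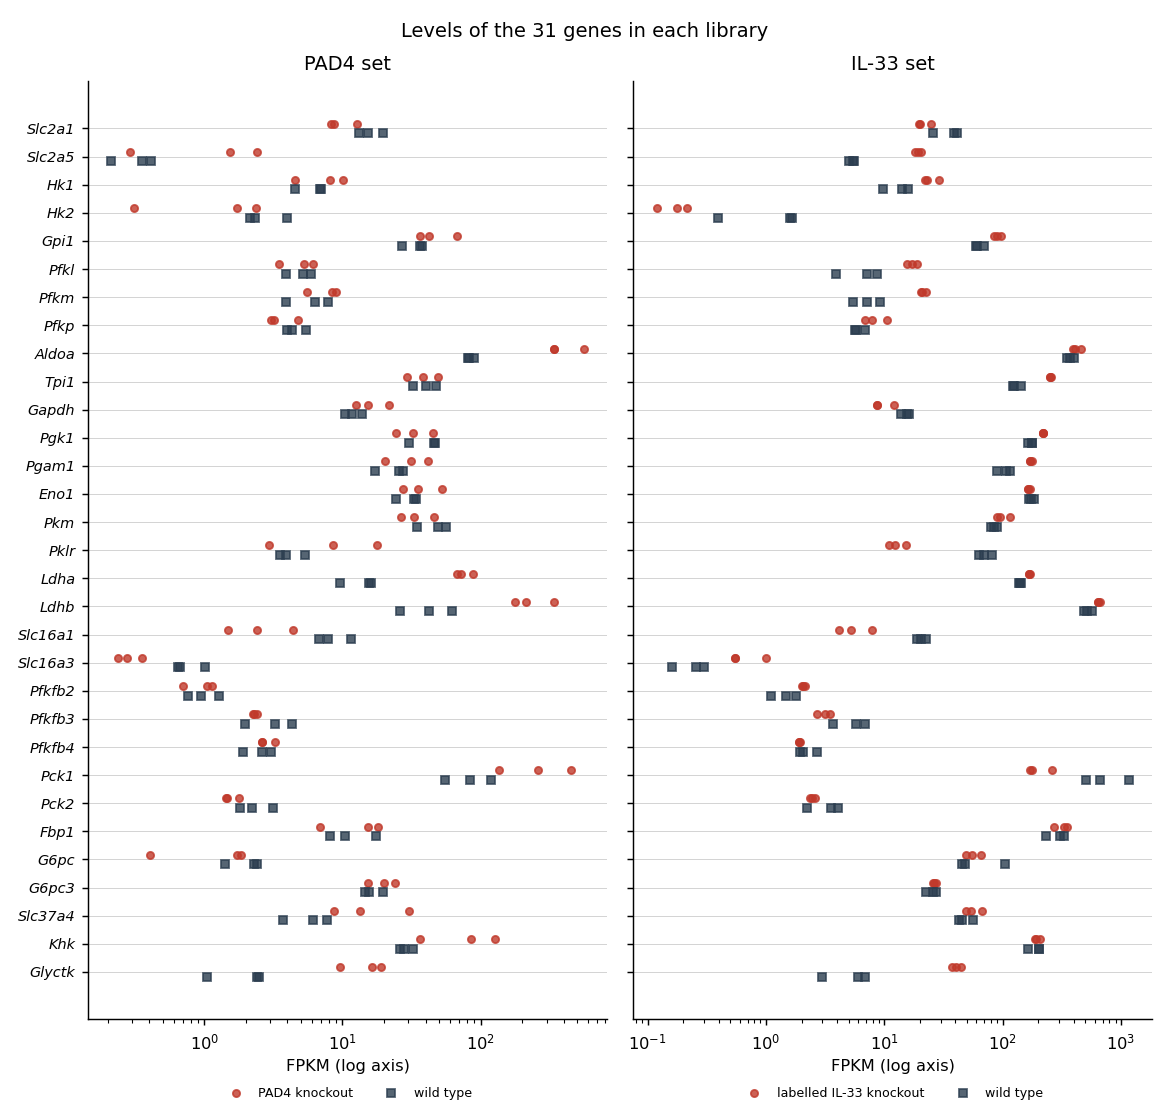
Level of each of the 31 genes in each library, in FPKM on a log axis, with PAD4 knockout or labelled IL-33 knockout libraries drawn as red circles and, in the row under them, the wild type libraries of the same set as dark squares. In the PAD4 set 7 genes had all knockout libraries above all wild type libraries and 4 had them below. In the IL-33 set 14 were above and 8 below. The same count was not made over all genes, so these numbers cannot be read as particular to this set of genes.

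**Figure D2:**
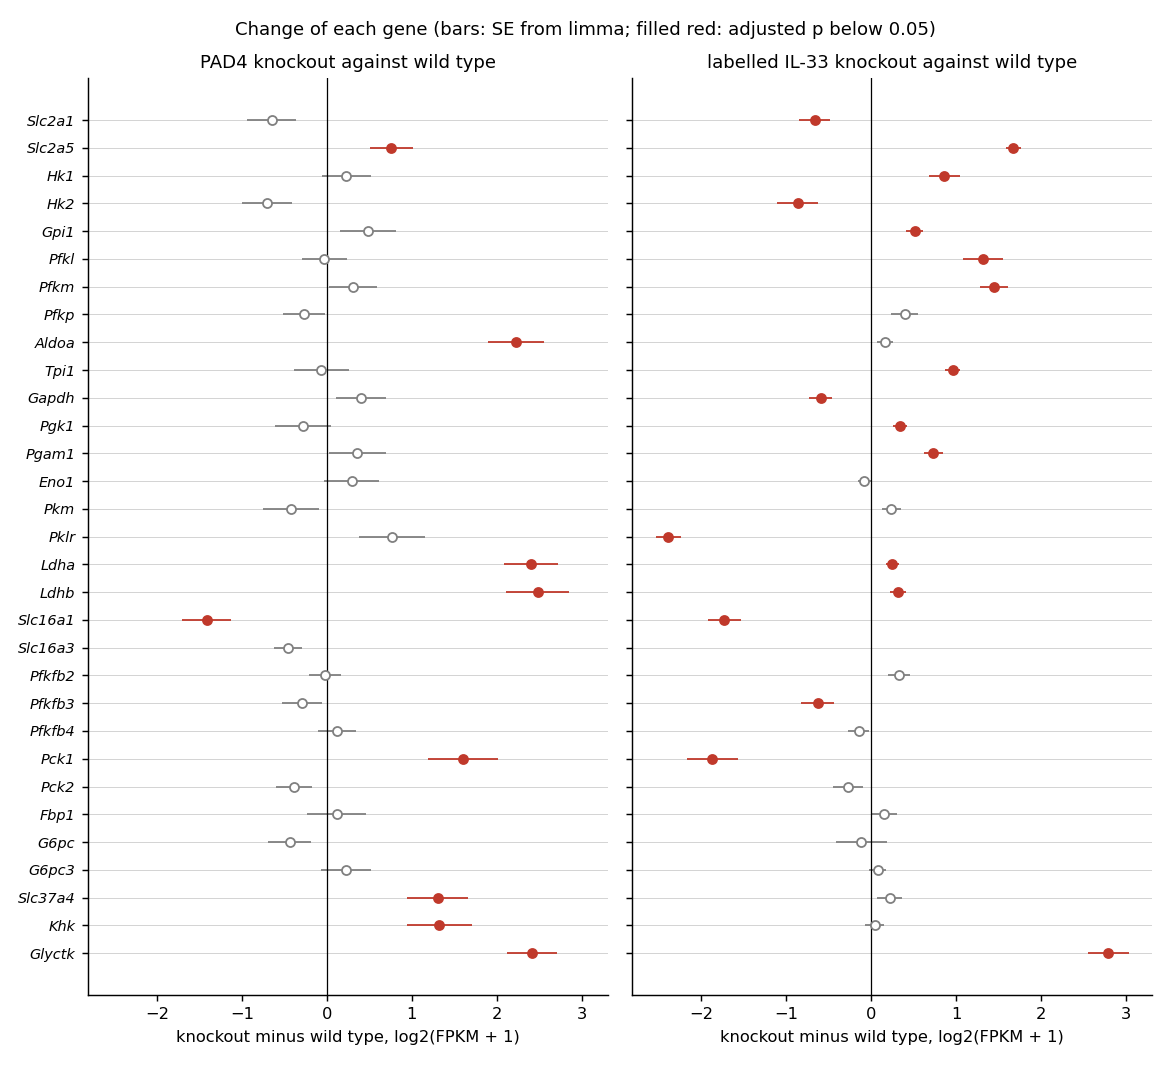
Change of each gene (knockout minus wild type, log2(FPKM + 1), bars limma's SE, 3 libraries a group) in the PAD4 set (left) and the IL-33 set (right), with genes at an adjusted p below 0.05 in filled red. Glyctk was at 2.41 in the PAD4 set and 2.79 in the IL-33 set, whereas Pck1 was at 1.60 in the PAD4 set and -1.87 in the IL-33 set.

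The sequences before the start sites of 4 of these genes are shown because each carries a short element known from earlier work on that gene or its pathway. RefSeq promoter windows (GRCm38.p6) were found for 31 of 31 genes, in 47 windows. No source used here names the build behind the tables, so the windows stand for the named genes, not for regions measured in these libraries. Each line gives the 250 bases before the start, 5′ to 3′ on the gene's strand, which is the plus strand for all 4. Capitals mark the hypoxia core letters ACGTG or GCGTG on either strand in Ldha and Slc16a1, the letters TTACGTCA (a cyclic AMP response element) in Pck1, and CACGGG and CCCGTG set 5 bases apart (the carbohydrate response element, bound by ChREBP in liver) in Pklr. Pklr has 2 windows, of which the one with that element is shown, and Ldha has 2, of which the first is shown.
Ldha, chr7:46845554-46845803: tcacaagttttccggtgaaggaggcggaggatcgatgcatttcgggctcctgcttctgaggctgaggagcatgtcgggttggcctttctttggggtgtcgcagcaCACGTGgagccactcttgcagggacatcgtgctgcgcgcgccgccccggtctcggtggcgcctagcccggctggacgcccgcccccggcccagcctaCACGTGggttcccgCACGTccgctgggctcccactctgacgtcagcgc
Slc16a1, chr3:104638414-104638663: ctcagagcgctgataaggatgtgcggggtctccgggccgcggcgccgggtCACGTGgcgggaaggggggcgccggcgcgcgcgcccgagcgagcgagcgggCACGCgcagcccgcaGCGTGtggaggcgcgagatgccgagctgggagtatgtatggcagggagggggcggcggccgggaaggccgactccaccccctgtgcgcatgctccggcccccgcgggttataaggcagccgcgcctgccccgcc
Pck1, chr2:173152823-173153072: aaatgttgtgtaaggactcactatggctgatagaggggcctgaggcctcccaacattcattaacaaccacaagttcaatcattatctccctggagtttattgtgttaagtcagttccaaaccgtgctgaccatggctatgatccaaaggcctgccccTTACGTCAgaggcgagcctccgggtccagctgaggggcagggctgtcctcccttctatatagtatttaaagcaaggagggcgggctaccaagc
Pklr, chr3:89136373-89136622: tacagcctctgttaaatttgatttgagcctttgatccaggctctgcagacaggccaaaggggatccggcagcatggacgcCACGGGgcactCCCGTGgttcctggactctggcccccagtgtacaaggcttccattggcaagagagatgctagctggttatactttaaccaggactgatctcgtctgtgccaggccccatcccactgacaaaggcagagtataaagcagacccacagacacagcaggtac

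The letters ACGTG stood in 16.6% of all 32851 windows of 250 bases and in 18 of the 47 windows of these genes, and GCGTG in 28.2% of all windows and in 19 of the 47. The E-box letters CACGTG, which contain ACGTG and read the same on both strands, stood in 6.02% of all windows and in 7 of the 47. In Ldha the capitals hold 5 matches, of which 4 are CACGTG read on both strands, and in Slc16a1 they hold 4 matches, of which 2 are CACGTG. The exact letters TTACGTCA stood in 0.448% of all windows and, among these genes, in that of Pck1 alone, with the first base at position -93 from the start. Other forms of the cyclic AMP response element were not searched. The Ldha line shown holds tgacgtca, which differs from TTACGTCA in its second base and is left in small letters. The paired letters of Pklr stood in 1 of 32851 windows, its own, with the first base at position -170. No other spelling or spacing was searched, so this count does not show how rare the carbohydrate response element is. The TTACGTCA letters and the CACGGG and CCCGTG pair, and the 4 promoters shown, were chosen after values and sequences had been seen. A match is a description of letters and does not show that a factor was bound in these kidneys.

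Glucose and fructose enter the cell through the transporters GLUT1 (Slc2a1) and GLUT5 (Slc2a5), the second being the fructose carrier of the straight proximal tubule. Slc2a5 was at 2.41, 0.292 and 1.54 FPKM in PAD4 knockout kidneys, against 0.213, 0.354 and 0.409 FPKM in wild type. Slc2a5 was at 20.3, 19.4 and 18.2 FPKM in kidneys labelled IL-33 knockout, against 5.04, 5.54 and 5.47 FPKM in wild type. The PAD4 groups overlapped, since PAD4 knockout library 2 lay within the wild type range, whereas in the IL-33 set all 3 libraries labelled IL-33 knockout were far above wild type. In the PAD4 set the gene was tested only through its knockout libraries, since the wild type mean was below 0.5 FPKM. The changes were 0.76 ± 0.25 (adjusted p = 0.0448) in the PAD4 set and 1.68 ± 0.09 (adjusted p = 3.08e-05) in the IL-33 set. The PAD4 call was lost without PAD4 knockout library 1 (adjusted p = 0.141) or 3 (0.0748), without wild type library 1 (0.238) or 3 (0.128), and, among other settings, with a pseudocount of 0.1 (0.0773) or median-of-ratios scaling (0.121).

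Slc2a1 went the other way. It was at 12.8, 8.23 and 8.76 FPKM in PAD4 knockout kidneys and 15.2, 13.3 and 19.6 FPKM in wild type, with every knockout library below every wild type one, but the change of -0.65 ± 0.29 did not pass (adjusted p = 0.133), except after median-of-ratios scaling (0.0366) or quantile normalization (0.0215). Slc2a1 fell to 20.1, 25.0 and 19.8 FPKM in kidneys labelled IL-33 knockout, against 38.9, 26.0 and 41.2 FPKM in wild type (-0.67 ± 0.18, adjusted p = 0.0234). Leaving out the library labelled IL-33 knockout 1 (adjusted p = 0.0785) or 3 (0.0823), or wild type library 1 (0.0683) or 3 (0.067), ended that call.

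Hexokinase traps glucose as glucose 6-phosphate. Hk1, the form most cells carry, was at 10.0, 4.58 and 8.17 FPKM in PAD4 knockout kidneys and 4.56, 7.01 and 6.87 FPKM in wild type and did not pass (adjusted p = 0.652). Hk1 rose to 22.9, 28.8 and 22.2 FPKM in kidneys labelled IL-33 knockout, against 9.81, 14.0 and 15.9 FPKM in wild type (0.86 ± 0.18, adjusted p = 0.00777), with no overlap. Hk2, the inducible form, was at 0.313, 1.72 and 2.36 FPKM in PAD4 knockout kidneys and 2.13, 2.32 and 3.97 FPKM in wild type (adjusted p = 0.104). The low value belonged to PAD4 knockout library 1, and Hk2 passed as lower without PAD4 knockout library 2 (0.00991) or 3 (0.0185) or wild type library 2 (0.0366), and with FPKM rescaled to TPM (0.0465).

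In kidneys labelled IL-33 knockout Hk2 fell to 0.119, 0.178 and 0.214 FPKM, against 1.60, 0.391 and 1.67 FPKM in wild type (-0.86 ± 0.24, adjusted p = 0.0265, tested only through the wild type libraries, which alone averaged 0.5 FPKM or more). Wild type library 2 was the low one of its group, yet still above all 3 libraries labelled IL-33 knockout. Hk2 made up 0.517, 0.615 and 0.955% of the summed Hk1 and Hk2 FPKM in those libraries and 14.0, 2.72 and 9.5% in wild type. The call was lost when any 1 library but wild type library 2 was left out (adjusted p = 0.0667 to 0.0791).

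Of the 5 genes of the first steps of glycolysis, Gpi1, Pfkl and Pfkm rose in kidneys labelled IL-33 knockout and Aldoa rose in PAD4 knockout kidneys. Gpi1 (glucose 6-phosphate isomerase) rose to 84.6, 96.7 and 90.0 FPKM in kidneys labelled IL-33 knockout, against 59.2, 70.0 and 60.4 FPKM in wild type (0.51 ± 0.10, adjusted p = 0.00554). Gpi1 was at 66.9, 36.6 and 42.7 FPKM in PAD4 knockout kidneys, against 27.2, 36.3 and 37.5 FPKM in wild type (adjusted p = 0.339). Phosphofructokinase, which commits sugar to glycolysis, has liver (Pfkl), muscle (Pfkm) and platelet (Pfkp) forms. Pfkl rose to 17.1, 18.8 and 15.7 FPKM in kidneys labelled IL-33 knockout, against 3.88, 8.72 and 7.17 FPKM in wild type (1.32 ± 0.24, adjusted p = 0.00411). Pfkm rose to 20.6, 22.3 and 20.7 FPKM in kidneys labelled IL-33 knockout, against 5.47, 9.19 and 7.16 FPKM in wild type (1.45 ± 0.16, adjusted p = 0.000504). Both groups of 3 were well apart for each of these genes. Pfkp was at 8.44 ± 1.87 FPKM in kidneys labelled IL-33 knockout and 6.10 ± 0.667 FPKM in wild type (SD, n = 3 each) and did not pass (adjusted p = 0.0796).

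In the PAD4 set none of the 3 phosphofructokinase forms passed: Pfkl was at 6.09, 3.45 and 5.25 FPKM in PAD4 knockout kidneys and 3.90, 5.18 and 5.90 FPKM in wild type. Pfkm was at 8.41, 5.52 and 8.97 FPKM in PAD4 knockout kidneys and 3.91, 6.32 and 7.92 FPKM in wild type. Pfkp averaged 3.67 ± 0.957 FPKM in PAD4 knockout kidneys and 4.58 ± 0.798 FPKM in wild type (SD, n = 3 each). The groups overlapped for all 3, whose adjusted p lay between 0.506 and 0.961. The difference between the knockout effects passed for Pfkl (1.34 ± 0.35, adjusted p = 0.0202) and Pfkm (1.14 ± 0.34, adjusted p = 0.0385). It no longer passed for Pfkl without PAD4 set wild type library 3 (adjusted p = 0.0507) or the library labelled IL-33 knockout 2 (0.0508). For Pfkm it was lost when any 1 of 8 libraries was left out (adjusted p = 0.0607 to 0.0919), the exceptions being PAD4 knockout libraries 1 and 3, PAD4 set wild type library 1 and IL-33 set wild type library 2. As a share of the summed forms, Pfkm made up 43.6, 45.3 and 52.0% in PAD4 knockout kidneys and 32.3, 40.9 and 41.0% in wild type. In kidneys labelled IL-33 knockout its share was 46.1, 43.2 and 46.8%, against 36.4, 38.8 and 33.7% in wild type, so the muscle form had the larger share in both knockouts with no overlap.

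Aldoa encodes aldolase A, which splits fructose 1,6-bisphosphate. It was at 558, 338 and 341 FPKM in PAD4 knockout kidneys and 81.2, 83.1 and 90.0 FPKM in wild type, so the lowest knockout library was far above the highest wild type one (2.23 ± 0.33, adjusted p = 0.000232). Aldoa was at 394, 455 and 408 FPKM in kidneys labelled IL-33 knockout, against 353, 401 and 368 FPKM in wild type, with overlap (adjusted p = 0.214). The 2 effects differed by -2.06 ± 0.30 (adjusted p = 0.000767). Tpi1, whose enzyme acts on the products of aldolase, was at 48.9, 29.4 and 38.4 FPKM in PAD4 knockout kidneys and 32.6, 40.5 and 47.8 FPKM in wild type (adjusted p = 0.929).

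In the later steps of glycolysis, which make ATP, 3 of 7 genes rose and 2 fell in kidneys labelled IL-33 knockout. Over all genes 22.2% rose and 16.8% fell there. In PAD4 knockout kidneys 0 of 7 passed (limma, 0 of 7 at an unadjusted p under 0.05). Over all genes 8.89% rose and 8.79% fell in that set. Tpi1 (triose phosphate isomerase) rose to 258, 253 and 251 FPKM in kidneys labelled IL-33 knockout, against 123, 143 and 124 FPKM in wild type (0.96 ± 0.09, adjusted p = 0.000236). Pgk1 (phosphoglycerate kinase) rose to 217, 222 and 218 FPKM in kidneys labelled IL-33 knockout, against 177, 164 and 178 FPKM in wild type (0.34 ± 0.08, adjusted p = 0.0118). Pgam1 (phosphoglycerate mutase) rose to 170.4, 169 and 177 FPKM in kidneys labelled IL-33 knockout, against 88.9, 107 and 115 FPKM in wild type (0.73 ± 0.11, adjusted p = 0.00173). Within each of the 3 genes the libraries labelled IL-33 knockout lay close together and above all wild type ones. The Pgk1 call was lost without the library labelled IL-33 knockout 1, 2 or 3 (adjusted p = 0.0525, 0.0548 and 0.055) and after median-of-ratios scaling (0.0769). Spsb2, which overlaps Tpi1 on the other strand, was at no more than 11.9 FPKM in the PAD4 set and 17.9 FPKM in the IL-33 set, and whether the counting used strand is not stated.

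In PAD4 knockout kidneys Pgk1 averaged 33.9 ± 10.4 FPKM, against 40.8 ± 9.17 FPKM in wild type (SD, n = 3 each). Pgam1 averaged 31.2 ± 10.8 FPKM in PAD4 knockout kidneys and 23.6 ± 5.52 FPKM in wild type (SD, n = 3 each). Both overlapped, with adjusted p = 0.629 for Pgk1 and 0.508 for Pgam1, and Pgk1 passed as lower after quantile normalization (0.0354). The difference between the effects passed for Tpi1 (1.03 ± 0.30, adjusted p = 0.0368), but was lost when any 1 of 10 libraries was left out (adjusted p = 0.0511 to 0.0902), the exceptions being PAD4 knockout library 1 and PAD4 set wild type library 1. Eno1 (enolase) passed in neither set, at 38.5 ± 13.0 FPKM in PAD4 knockout kidneys and 30.5 ± 5.26 FPKM in wild type (SD, n = 3 each). Eno1 averaged 165 ± 4.45 FPKM in kidneys labelled IL-33 knockout, against 175 ± 9.19 FPKM in wild type (SD, n = 3 each).

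Gapdh, the glyceraldehyde 3-phosphate dehydrogenase often used as a reference gene, was at 21.8, 15.4 and 12.5 FPKM in PAD4 knockout kidneys and 11.8, 10.4 and 14.0 FPKM in wild type (adjusted p = 0.382). Gapdh fell to 8.76, 12.0 and 8.71 FPKM in kidneys labelled IL-33 knockout, against 15.6, 16.3 and 13.8 FPKM in wild type (-0.59 ± 0.14, adjusted p = 0.0122). Its direction there was opposite to that of Tpi1, Pgk1 and Pgam1, and its FPKM was far below theirs. The near-identical copy Gm3839 was listed at 1.11 to 2.12 FPKM in the PAD4 set and 4.05 to 5.16 FPKM in the IL-33 set. Whether the authors' counting split reads among Gapdh copies was not tested, so these values are uncertain. The Gapdh call was lost without the library labelled IL-33 knockout 1 (adjusted p = 0.0544) or 3 (0.055). The difference between the effects was -1.0 ± 0.29 (adjusted p = 0.0373) and was lost without any 1 of 7 libraries (adjusted p = 0.0567 to 0.104), the exceptions being PAD4 knockout libraries 2 and 3, PAD4 set wild type library 3, the library labelled IL-33 knockout 2 and IL-33 set wild type library 3.

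Pyruvate kinase ends glycolysis, and its forms come from Pkm, found in most cells, and Pklr, the liver and red cell form that the proximal tubule also carries. Pklr fell to 12.3, 10.9 and 15.4 FPKM in kidneys labelled IL-33 knockout, against 81.4, 69.2 and 63.0 FPKM in wild type (-2.39 ± 0.15, adjusted p = 4.62e-05). Pklr was at 8.48, 17.8 and 2.92 FPKM in PAD4 knockout kidneys, against 3.56, 5.33 and 3.88 FPKM in wild type. The PAD4 groups overlapped, with PAD4 knockout library 2 highest and library 3 below all wild type libraries, and the change of 0.77 ± 0.39 did not pass (adjusted p = 0.189), except as higher without PAD4 knockout library 3 (0.00472). The 2 effects differed by -3.16 ± 0.55 (adjusted p = 0.00225). Hcn3, which overlaps Pklr on the other strand, was at no more than 3.47 FPKM in the PAD4 set and 11.7 FPKM in the IL-33 set.

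Pkm passed in neither set. It was at 46.0, 26.5 and 32.8 FPKM in PAD4 knockout kidneys and 34.8, 49.5 and 56.3 FPKM in wild type (adjusted p = 0.429, but 0.0163 as lower after quantile normalization and 0.0462 with array weights). Pkm was at 90.1, 116 and 95.6 FPKM in kidneys labelled IL-33 knockout, against 80.0, 84.2 and 90.1 FPKM in wild type (adjusted p = 0.133). The share of Pkm in the summed pyruvate kinase FPKM was 88.0, 91.4 and 86.2% in kidneys labelled IL-33 knockout and 49.6, 54.9 and 58.8% in wild type, with no overlap. In the PAD4 set the share was 84.4, 59.8 and 91.8% in PAD4 knockout kidneys and 90.7, 90.3 and 93.6% in wild type, with overlap.

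**Figure D3:**
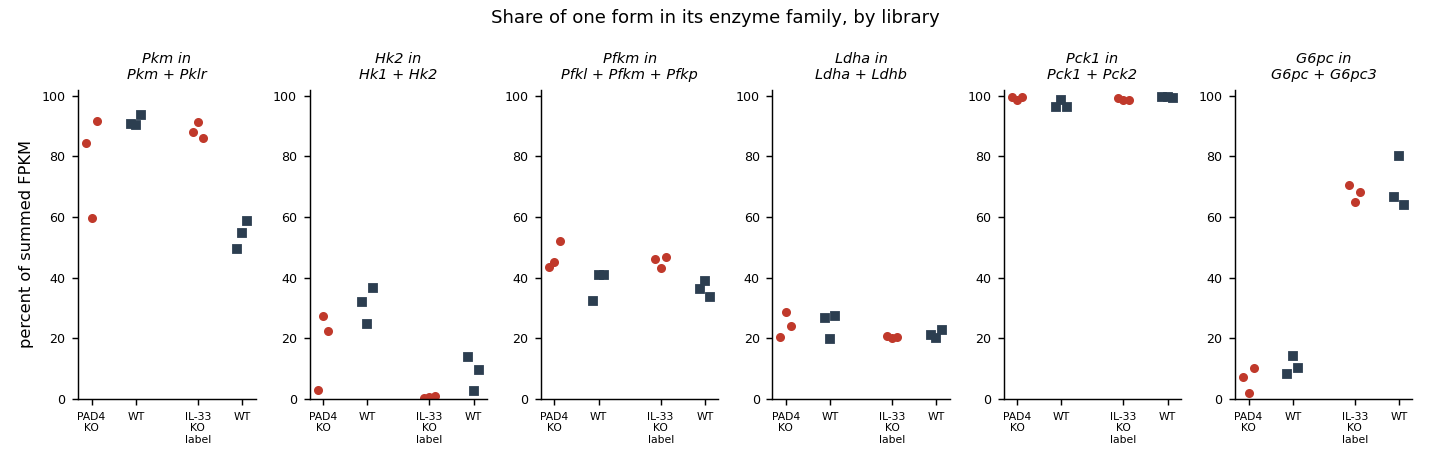
Share of one form in its enzyme family, as percent of the summed FPKM, in each library of PAD4 knockout, its wild type, labelled IL-33 knockout and its wild type, from left to right in each panel. The share of Pkm was 88.0, 91.4 and 86.2% in kidneys labelled IL-33 knockout and 49.6, 54.9 and 58.8% in wild type, while the share of Ldha overlapped between knockout and wild type in both sets.

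Lactate dehydrogenase is built from A subunits (Ldha), the form usual in glycolytic tissue, and B subunits (Ldhb), usual in tissue that burns lactate. Ldha was at 88.1, 72.0 and 67.5 FPKM in PAD4 knockout kidneys and 9.59, 15.5 and 16.1 FPKM in wild type (2.41 ± 0.32, adjusted p = 0.000114). Ldhb was at 341, 178 and 213 FPKM in PAD4 knockout kidneys and 26.2, 62.3 and 42.5 FPKM in wild type (2.48 ± 0.37, adjusted p = 0.000256). All knockout libraries were above all wild type libraries for both genes, and the ratios of the group means were 5.52 for Ldha and 5.58 for Ldhb. The share of Ldha in the sum was 20.6, 28.8 and 24.1% in PAD4 knockout kidneys and 26.8, 19.9 and 27.5% in wild type, which overlapped.

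The rises in kidneys labelled IL-33 knockout were small. Ldha was at 169, 169 and 167 FPKM in kidneys labelled IL-33 knockout, against 137, 144 and 142 FPKM in wild type (0.25 ± 0.07, adjusted p = 0.0318). Ldhb was at 637, 672 and 645 FPKM in kidneys labelled IL-33 knockout and 516, 573 and 484 FPKM in wild type (0.31 ± 0.10, adjusted p = 0.0337). The groups did not overlap, but the call of each gene was lost after median-of-ratios scaling (adjusted p = 0.187 and 0.203) and without the library labelled IL-33 knockout 1, 2 or 3 or wild type library 1 (adjusted p = 0.0592 to 0.117 for Ldha and 0.0688 to 0.121 for Ldhb), and that of Ldhb also without wild type library 3 (0.0511). The 2 knockout effects differed by -2.15 ± 0.29 for Ldha (adjusted p = 0.000578) and by -2.17 ± 0.41 for Ldhb (adjusted p = 0.0036).

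Lactate crosses the membrane through MCT1 (Slc16a1) and MCT4 (Slc16a3), the second being the exporter of glycolytic cells. Slc16a1 fell to 1.48, 4.36 and 2.4 FPKM in PAD4 knockout kidneys, against 6.74, 7.85 and 11.5 FPKM in wild type (-1.41 ± 0.29, adjusted p = 0.00278). It fell to 5.24, 4.14 and 7.84 FPKM in kidneys labelled IL-33 knockout, against 22.7, 20.6 and 19.1 FPKM in wild type (-1.73 ± 0.19, adjusted p = 0.000501). No knockout library reached the wild type range in either set, and of the 31 genes Slc16a1 was the only one that fell in both with FPKM as deposited. Slc2a1 was lower in both after median-of-ratios scaling or quantile normalization, Pfkfb3 with array weights, and Hk2 after rescaling to TPM or without PAD4 knockout library 2 or 3 or wild type library 2. The 2 effects on Slc16a1 differed by -0.31 ± 0.38, which did not pass (adjusted p = 0.646). Slc16a3 was at 0.353, 0.274 and 0.237 FPKM in PAD4 knockout kidneys and 0.668, 0.643 and 1.02 FPKM in wild type (adjusted p = 0.059). It passed as lower after median-of-ratios scaling (0.0202), quantile normalization (0.0433) or rescaling without mitochondrial genes (0.0381), and with array weights (0.0131). In kidneys labelled IL-33 knockout it was at 0.548, 0.999 and 0.549 FPKM, against 0.255, 0.162 and 0.298 FPKM in wild type, too low to be tested with FPKM as deposited. Slc16a3 was tested there and passed as higher after rescaling to TPM or without mitochondrial genes, and without wild type library 3. With no filter, or without wild type library 1 or 2, it was tested and did not pass.

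The bifunctional enzymes of Pfkfb2, Pfkfb3 and Pfkfb4 make and remove fructose 2,6-bisphosphate, which switches phosphofructokinase on and fructose bisphosphatase off. Pfkfb3, whose form mainly makes it, fell to 3.13, 2.68 and 3.47 FPKM in kidneys labelled IL-33 knockout, against 5.78, 3.72 and 6.86 FPKM in wild type (-0.63 ± 0.19, adjusted p = 0.0363). That call was lost when any 1 library but wild type library 2 was left out (adjusted p = 0.0699 to 0.117), and after rescaling to TPM (0.0602). Pfkfb3 was at 2.31, 2.24 and 2.39 FPKM in PAD4 knockout kidneys, against 1.97, 4.29 and 3.24 FPKM in wild type (adjusted p = 0.451, but 0.00826 as lower with array weights). Pfkfb2 and Pfkfb4 were between 0.697 and 3.25 FPKM in every library and passed in neither set, apart from Pfkfb2 as higher in kidneys labelled IL-33 knockout when wild type library 3 was left out (adjusted p = 0.0284).

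Phosphoenolpyruvate carboxykinase, cytosolic (Pck1) or mitochondrial (Pck2), makes the phosphoenolpyruvate from which gluconeogenesis proceeds. Pck1 was at 455, 135 and 259.6 FPKM in PAD4 knockout kidneys and 55.7, 119.7 and 83.1 FPKM in wild type (1.60 ± 0.41, adjusted p = 0.0112). Pck1 fell to 263, 172 and 177 FPKM in kidneys labelled IL-33 knockout, against 504, 1166 and 669 FPKM in wild type (-1.87 ± 0.30, adjusted p = 0.00257). The groups were apart in both sets and in opposite directions, although PAD4 knockout library 2 and PAD4 set wild type library 2 were close to each other. The 2 effects differed by -3.47 ± 0.58 (adjusted p = 0.00178). Dropping wild type library 1 ended the PAD4 call (adjusted p = 0.14), and so did dropping wild type library 3 (0.0712), and the IL-33 call was kept under all 17 alternatives run. Pck2 passed in neither set, at 1.57 ± 0.197 FPKM in PAD4 knockout kidneys and 2.4 ± 0.663 FPKM in wild type (SD, n = 3 each). Pck2 averaged 2.48 ± 0.123 FPKM in kidneys labelled IL-33 knockout, against 3.28 ± 0.950 FPKM in wild type (SD, n = 3 each), and passed as lower without wild type library 1 (adjusted p = 0.0155).

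**Figure D4:**
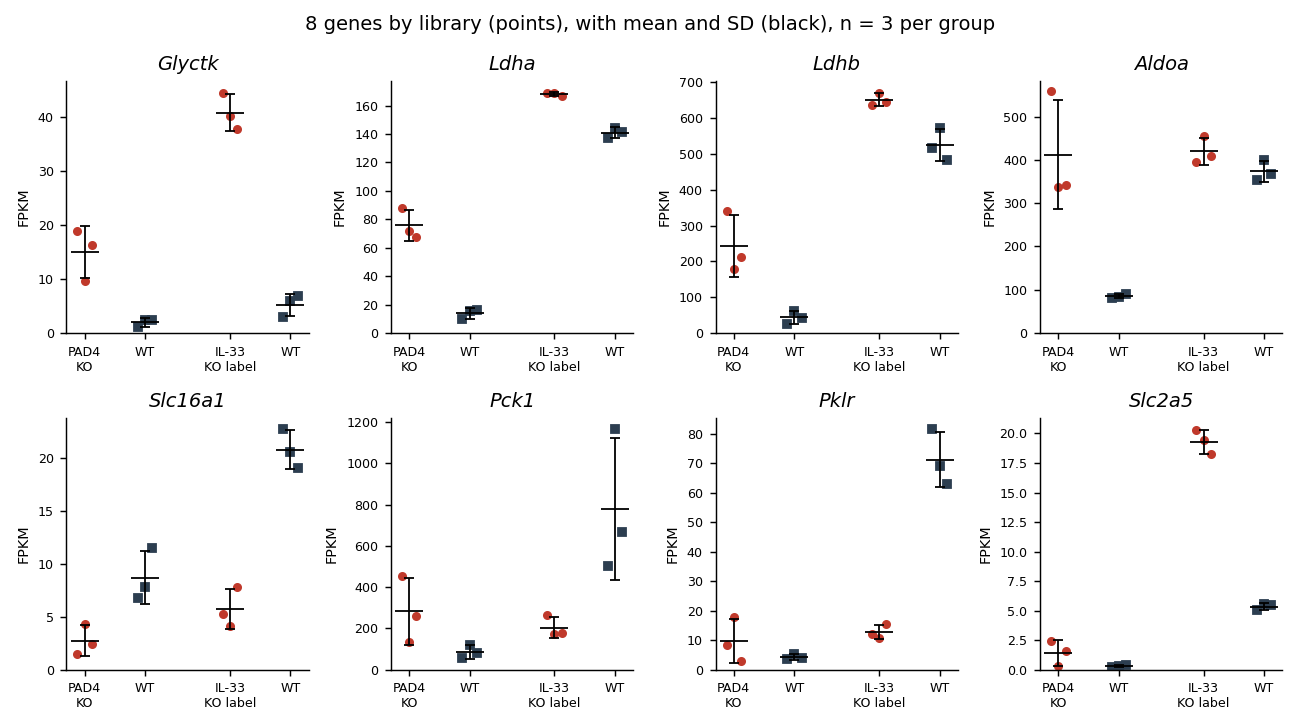
FPKM of 8 genes in each library (red circles knockout, dark squares wild type, black mean and SD, n = 3 a group, linear axes from 0), with the PAD4 set left and the IL-33 set right in each panel. Pck1 was higher in PAD4 knockout kidneys and lower in those labelled IL-33 knockout than in wild type, and Glyctk was higher and Slc16a1 lower in both.

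Fbp1, G6pc and G6pc3, the later enzymes of glucose output, passed in neither set with equal library weights. Fbp1 (fructose 1,6-bisphosphatase) was at 18.0, 6.91 and 15.3 FPKM in PAD4 knockout kidneys and 10.4, 17.4 and 8.15 FPKM in wild type (adjusted p = 0.868). Fbp1 was at 353, 274 and 330.5 FPKM in kidneys labelled IL-33 knockout, against 330.4, 304 and 234 FPKM in wild type (adjusted p = 0.472). G6pc, the glucose 6-phosphatase of liver and kidney, was at 1.86, 0.404 and 1.74 FPKM in PAD4 knockout kidneys and 1.42, 2.43 and 2.29 FPKM in wild type (adjusted p = 0.262, but 0.0307 as lower with array weights). Its level in kidneys labelled IL-33 knockout was 65.9, 49.1 and 55.6 FPKM, against 45.4, 105 and 48.0 FPKM in wild type (adjusted p = 0.789). Groups overlapped in each of these comparisons, and so did those of G6pc3, the form found in most tissues, which averaged 19.7 ± 4.22 FPKM in PAD4 knockout kidneys and 16.6 ± 2.78 FPKM in wild type (SD, n = 3 each). G6pc3 averaged 26.6 ± 0.718 FPKM in kidneys labelled IL-33 knockout, against 25.2 ± 2.34 FPKM in wild type (SD, n = 3 each).

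Slc37a4 carries glucose 6-phosphate to glucose 6-phosphatase in the endoplasmic reticulum. It rose to 30.4, 8.71 and 13.4 FPKM in PAD4 knockout kidneys, against 3.71, 6.15 and 7.68 FPKM in wild type (1.30 ± 0.36, adjusted p = 0.0177). PAD4 knockout library 1 was the highest by far, and the call was lost without it (adjusted p = 0.0543) and without wild type library 1 (0.177) or 3 (0.0527). Slc37a4 was at 66.6, 48.9 and 54.1 FPKM in kidneys labelled IL-33 knockout, against 45.4, 56.6 and 43.1 FPKM in wild type, with overlap (adjusted p = 0.269).

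Fructose breakdown starts with ketohexokinase (Khk), and glycerate kinase (Glyctk) phosphorylates glycerate, which arises from fructose and serine. Glyctk rose to 18.9, 9.67 and 16.3 FPKM in PAD4 knockout kidneys, against 1.04, 2.49 and 2.42 FPKM in wild type (2.41 ± 0.29, adjusted p = 6.08e-05). It rose to 44.4, 40.1 and 37.7 FPKM in kidneys labelled IL-33 knockout, against 2.96, 5.96 and 6.86 FPKM in wild type (2.79 ± 0.24, adjusted p = 0.000174). The group means stood 7.54 to 1 in the PAD4 set and 7.75 to 1 in the IL-33 set, and the lowest knockout library was above the highest wild type one in each. The effects differed by 0.38 ± 0.41, which did not pass (adjusted p = 0.591). Its antisense neighbour D030055H07Rik was at no more than 0.0502 FPKM in the PAD4 set and 0.614 FPKM in the IL-33 set.

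Khk rose to 127, 36.6 and 85.3 FPKM in PAD4 knockout kidneys, against 28, 26.1 and 32.7 FPKM in wild type (1.33 ± 0.39, adjusted p = 0.0225). The 3 knockout libraries were spread widely, with library 2 just above the wild type range, and the call was lost in the absence of wild type library 1 (adjusted p = 0.139) or 3 (0.0814) and after median-of-ratios scaling (0.0614) or quantile normalization (0.0648). Khk was at 208, 191 and 187 FPKM in kidneys labelled IL-33 knockout, against 204, 203 and 165 FPKM in wild type, with overlap (adjusted p = 0.786). The difference between the effects was -1.28 ± 0.46 (adjusted p = 0.0847), and without PAD4 knockout library 2 it passed for Khk (0.000799) and for Slc37a4 (0.0237).

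Of the 8 genes that rose in PAD4 knockout kidneys, 4 (Aldoa, Ldha, Ldhb and Glyctk) were kept without wild type library 1 and without wild type library 3, and Slc16a1 was kept without any 1 library. With no filter on low values, where 32199 genes were tested, 0 genes passed in the PAD4 set by limma, 6053 genes had an unadjusted p under 0.05, and the adjusted p of the 9 genes lay between 0.0707 and 0.32. The same choice in the IL-33 set ended the calls of Slc2a1 (0.0722), Hk2 (0.082), Ldhb (0.0827) and Pfkfb3 (0.0961).

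Around these genes, the list of other glucose and fructose genes had 9 of 34 tested higher and 0 lower in PAD4 knockout kidneys, with a median change of 0.52, where 8.89% of all genes rose and 8.79% fell. In kidneys labelled IL-33 knockout 12 of 34 were higher and 8 lower, with a median of 0.14, where 22.2% of all genes rose and 16.8% fell. Slc2a2 in the PAD4 set and Eno2 in the IL-33 set passed the filter through 1 of their groups only. Without them 8 of 33 were higher and 0 lower in PAD4 knockout kidneys. In those labelled IL-33 knockout 12 of 33 were then higher and 7 lower. Mdh1 and Mdh2 encode the cytosolic and mitochondrial malate dehydrogenases. Mdh1 rose to 178 ± 88.2 FPKM in PAD4 knockout kidneys, against 9.58 ± 2.18 FPKM in wild type (SD, n = 3 each, adjusted p = 4.82e-06). Mdh2 rose to 64.8 ± 30.0 FPKM in PAD4 knockout kidneys, against 11.4 ± 2.33 FPKM in wild type (SD, n = 3 each, adjusted p = 0.000245). Tkfc (triokinase, which acts after Khk in fructose breakdown) rose to 33.3, 14.6 and 18.5 FPKM in PAD4 knockout kidneys, against 4.36, 6.83 and 6.72 FPKM in wild type (adjusted p = 0.00154). Slc2a2 (GLUT2, the glucose exit of the proximal tubule) rose to 2.62, 8.38 and 1.71 FPKM in PAD4 knockout kidneys, against 0.169, 0.507 and 0.397 FPKM in wild type (adjusted p = 0.00115, tested only through the knockout libraries, which alone averaged 0.5 FPKM or more, or 0.056 without wild type library 1). It also rose in kidneys labelled IL-33 knockout, to 22.8, 16.2 and 26.5 FPKM, against 7.01, 8.86 and 8.17 FPKM in wild type (adjusted p = 0.00112).

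In kidneys labelled IL-33 knockout, Slc16a7 (MCT2, a high-affinity carrier of lactate and pyruvate) rose to 17.3, 23.2 and 19.7 FPKM, against 4.01, 5.42 and 3.62 FPKM in wild type (1.98 ± 0.16, adjusted p = 0.000134). Sord (sorbitol dehydrogenase, which makes fructose) rose to 441, 393 and 375 FPKM in kidneys labelled IL-33 knockout, against 139, 171 and 117 FPKM in wild type (1.51 ± 0.15, adjusted p = 0.000282). The direction of Slc16a7 was opposite to that of Slc16a1 in the same libraries. Slc2a4 (GLUT4) and Slc5a1 (SGLT1, a sodium-coupled glucose carrier) rose by 1.31 and 0.95 on the log2 scale in kidneys labelled IL-33 knockout (adjusted p = 0.000293 and 0.00033).

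The pentose phosphate pathway leaves glycolysis at glucose 6-phosphate and makes NADPH and ribose. In PAD4 knockout kidneys 0 of its 9 genes passed the limma threshold (1 of 9 at an unadjusted p under 0.05). Over all genes 8.89% rose and 8.79% fell in that set. Prps1 was there at 2.31 ± 0.372 FPKM, against 4.04 ± 0.719 in wild type (SD, n = 3 each, adjusted p = 0.0744). Rpe was at 6.28 ± 2.86 FPKM, against 3.74 ± 0.986 in wild type (SD, n = 3 each, adjusted p = 0.204). In kidneys labelled IL-33 knockout 7 of 9 fell and 0 rose, with a median of -0.70, where 16.8% of all genes fell. G6pdx, the first and rate-limiting enzyme, fell to 12.1, 13.4 and 12.3 FPKM in kidneys labelled IL-33 knockout, against 28.8, 27.5 and 33.9 FPKM in wild type (-1.19 ± 0.11, adjusted p = 0.000202). Pgd fell to 20.5, 26.7 and 21.4 FPKM in kidneys labelled IL-33 knockout, against 60.6, 57.9 and 64.6 FPKM in wild type (-1.39 ± 0.12, adjusted p = 0.000156). Both genes showed groups with no overlap. Taldo1 (transaldolase) and Rpia (ribose 5-phosphate isomerase) fell by 1.25 and 0.70 on the log2 scale in the same libraries (adjusted p = 4.92e-05 and 0.00168).

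Among regulators of glucose metabolism, 3 of 23 rose and 3 fell in PAD4 knockout kidneys, and 7 of 24 rose and 7 fell in kidneys labelled IL-33 knockout. Over all genes the shares were 8.89% higher and 8.79% lower in the PAD4 set and 22.2% and 16.8% in the IL-33 set. Mlxipl encodes ChREBP, the glucose-sensing factor known to drive Pklr in liver. It rose to 34.2, 30.5 and 26.0 FPKM in PAD4 knockout kidneys, against 11.2, 7.88 and 12.4 FPKM in wild type (1.46 ± 0.29, adjusted p = 0.00239). It fell to 24.7, 23.7 and 24.2 FPKM in kidneys labelled IL-33 knockout, against 29.2, 35.8 and 32.7 FPKM in wild type (-0.41 ± 0.10, adjusted p = 0.0132). That call was lost without the library labelled IL-33 knockout 2 (adjusted p = 0.055) or 3 (0.0544). The 2 effects had opposite signs, as those of Pck1 had. Txnip, a well-known ChREBP target that limits glucose uptake, fell to 67.3, 62.8 and 54.0 FPKM in kidneys labelled IL-33 knockout, against 234, 225 and 215 FPKM in wild type (adjusted p = 2.94e-05), and in PAD4 knockout kidneys to 68.0, 50.7 and 43.4 FPKM, against 84.6, 105 and 127 FPKM in wild type (adjusted p = 0.0492). The PAD4 call of Txnip was lost when any 1 library but PAD4 knockout library 1 was left out (adjusted p = 0.0649 to 0.176).

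Ppargc1a encodes PGC-1α, a coactivator of mitochondrial and gluconeogenic genes, and rose to 4.80, 2.08 and 2.82 FPKM in PAD4 knockout kidneys, against 0.964, 1.55 and 1.75 FPKM in wild type (adjusted p = 0.0358), a call lost without PAD4 knockout library 1 (0.212) or wild type library 1 (0.179) or 3 (0.0696). It rose to 11.8, 14.2 and 12.2 FPKM in kidneys labelled IL-33 knockout, against 3.55, 5.25 and 5.24 FPKM in wild type (adjusted p = 0.000625). Cebpb, a factor of acute phase and gluconeogenic genes, fell in both, by 1.11 in PAD4 knockout kidneys (adjusted p = 0.0161) and by 2.26 in kidneys labelled IL-33 knockout (adjusted p = 0.000103). The PAD4 call of Cebpb was lost without PAD4 knockout library 3 or any 1 of the 3 wild type libraries (adjusted p = 0.0556 to 0.0941). Myc, which drives many glycolytic genes in dividing cells, fell to 2.26, 2.41 and 2.4 FPKM in kidneys labelled IL-33 knockout, against 18.8, 15.9 and 21.3 FPKM in wild type (-2.54 ± 0.12, adjusted p = 2.21e-05).

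Hypoxia-inducible targets outside glycolysis showed 0 of 14 higher and 2 lower in PAD4 knockout kidneys, where 8.89% and 8.79% of all genes were, among them Egln3, a prolyl hydroxylase that marks HIF for breakdown (-1.09, adjusted p = 0.0146). The Egln3 call was lost without PAD4 knockout library 3 (adjusted p = 0.0574) or wild type library 1 (0.0556) or 3 (0.0872). Among the kidneys labelled IL-33 knockout 7 of 15 were higher and 5 lower, where 22.2% and 16.8% of all genes were, and 5 of 12 higher and 4 lower without the genes that passed the filter through 1 group only. Ddit4, an mTOR inhibitor induced by stress, fell there by 1.66 on the log2 scale (adjusted p = 3.02e-05). P4ha1, a collagen prolyl hydroxylase subunit, rose to 13.0, 14.0 and 14.7 FPKM in kidneys labelled IL-33 knockout, against 3.39, 5.20 and 6.26 FPKM in wild type (adjusted p = 0.00109). Epo (erythropoietin) was at 1.38, 0.818 and 1.39 FPKM in kidneys labelled IL-33 knockout and at 0.0247, 0.0165 and 0.0346 FPKM in wild type, and passed the filter only through the libraries labelled IL-33 knockout.

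**Figure D5:**
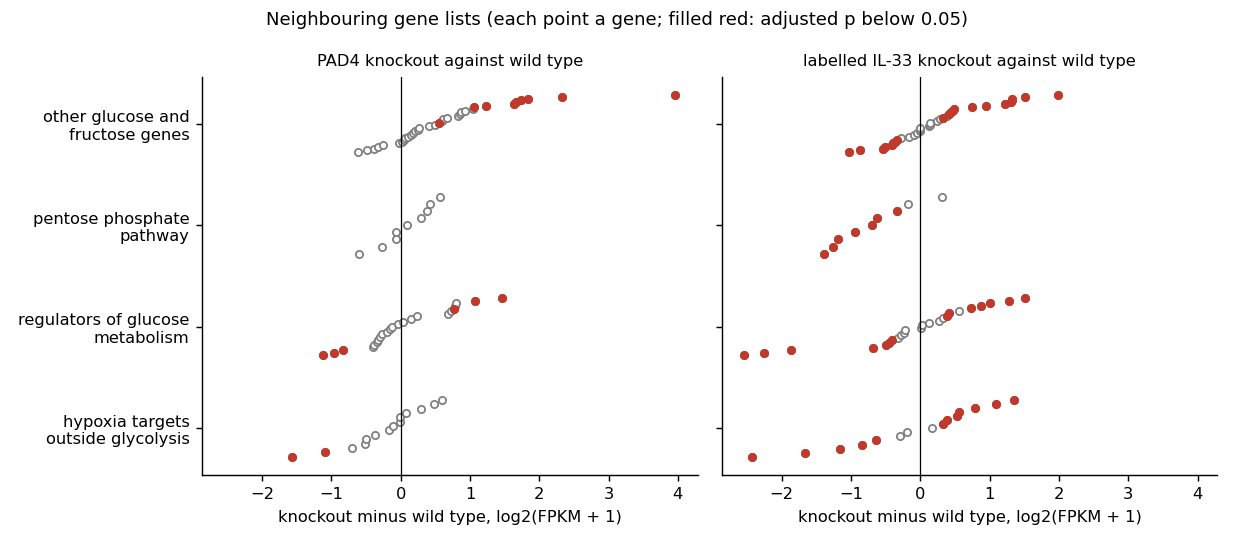
Change of each tested gene of 4 neighbouring lists (knockout minus wild type, log2(FPKM + 1)), in PAD4 knockout (left) and labelled IL-33 knockout kidneys (right), with genes at a limma adjusted p below 0.05 in filled red. Of the 9 pentose phosphate genes, 0 passed in PAD4 knockout kidneys and 7 were lower in those labelled IL-33 knockout. Over all genes 8.89% were higher and 8.79% lower in the PAD4 set, and 16.8% lower in the IL-33 set.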

How the data were processed

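The authors deposited FPKM values, 1 table per set with 6 library columns, per the file headers. Poly(A) selection and strand-specific libraries are given per the labels' protocols. Per the submitters' processing notes the tools were HISAT2, StringTie, cutadapt, FastQC, edgeR and DESeq2, with no role or version, and no source used here names the genome build or annotation. The tables hold Ensembl numbers only, which a GENCODE annotation matched to symbols for 30212 of 32199 and 29690 of 31719 genes. Wild type columns of the IL-33 table carry no genotype, and were taken as wild type since the knockout columns of that table are named as such and the batch has only these 2 groups. Low values did not fall on multiples of single reads (the fullest bin held 1.77% to 3.15% of them), so depth is unknown and no count test was run.

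The test was limma 3.58.1 under R 4.3.3, on log2(FPKM + 1) (mean-variance trend, two-sided, Benjamini-Hochberg over all genes tested), within each set over genes with a mean of at least 0.5 FPKM (13986 and 14513). The difference between knockout effects was fitted over 13010 genes in both. For 3 against 3 libraries, 0.1 is the smallest p of an exact permutation test. The fit was tested on simulated data with known changes.

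Form shares are percent of summed FPKM per library, with no test. Values are given for each library for genes past the threshold and for Hk1, Hk2, Pkm, Pklr, Ldha, Ldhb, Pck1, Fbp1, G6pc, Khk and Slc2a5, and for up to 4 genes by smallest adjusted p in each neighbouring list and set, or 2 where none passed. Some genes this rule picks are not reported here. The members and lists were chosen with earlier results of these data known. Promoter windows are RefSeq's (GRCm38.p6). Alternatives were the pseudocount, the filter, scalings, the trend, array weights, a replicate block and leaving out each library. Other tools were Python 3.11.15, pandas 2.3.3 and matplotlib 3.10.9.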

Additional observations from a re-analysis of the deposited data

Results flagged for a closer look

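The effect of the knockout differed between the sets for 9 of the 30 genes tested in both, by limma's test of the difference. That is the effect in kidneys labelled IL-33 knockout minus the effect in PAD4 knockout kidneys, on the log2(FPKM + 1) scale. Over all 13010 genes tested in both sets, 6.18% passed in the positive and 6.23% in the negative direction. The difference was 1.34 for Pfkl, 1.14 for Pfkm, 1.03 for Tpi1, -2.06 for Aldoa, -1.0 for Gapdh, -3.16 for Pklr, -2.15 for Ldha, -2.17 for Ldhb and -3.47 for Pck1. Sets and batches coincide, so the genotype and the batch cannot be told apart in these values. Of the 9, Pck1, Pklr, Aldoa, Ldha and Ldhb passed under all 23 alternatives run, and Pfkl, Pfkm, Tpi1 and Gapdh were lost under at least 1.

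In the neighbouring lists the difference also passed for genes that the text names. In other glucose and fructose genes it was -1.54 for Tkfc, -3.22 for Mdh1, -2.08 for Mdh2 and 1.37 for Slc16a7. In the pentose phosphate pathway it was -1.13 for G6pdx, -1.32 for Pgd, -1.08 for Rpia and -1.34 for Taldo1. Among the regulators it was -1.87 for Mlxipl, -3.26 for Myc and -1.15 for Cebpb. Among the hypoxia targets it was -0.96 for Ddit4 and 1.26 for Egln3. Of these, Slc16a7, Cebpb, Ddit4 and Egln3 were lost under at least 1 alternative.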

How the results depend on the processing

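No call of a member or named gene changed direction under any alternative run. In the PAD4 set 0 genes and 0 of the 31 members passed in either direction with no filter (10 members and 6053 genes at an unadjusted p under 0.05 by limma), which tests 32199 genes. Genes lower came to 762 with a mean of at least 2 FPKM, genes higher to 1916 with quantile normalization, and 2267 higher and 2939 lower with array weights. Members lower came to 3 with median-of-ratios scaling, 2 with rescaling to TPM, 2 with rescaling without mitochondrial genes, 5 with quantile normalization and 5 with array weights. In the IL-33 set members lower came to 4 with no filter. For the difference, genes higher came to 1369 with no filter and 375 with a mean of at least 2 FPKM, genes higher and lower to 1361 and 1678 with median-of-ratios scaling, 1580 and 1489 with quantile normalization, and 2037 and 1488 with array weights. Members higher in the difference came to 1 with rescaling to TPM, 7 with quantile normalization and 6 with array weights. The cause of these shifts was not tested.

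Leaving out 1 library at a time gave, in the PAD4 set, 352 to 1770 genes higher, 515 to 1764 lower, 4 to 8 members higher and 1 to 2 lower. In the IL-33 set it gave 2072 to 3903 genes higher, 1554 to 2662 lower, 8 to 12 members higher and 3 to 7 lower. For the difference it gave 550 to 1128 genes higher, 532 to 1027 lower, 0 to 4 members higher and 5 to 8 lower. Of all calls in the PAD4 set 50.3% were higher, against 33.1% without wild type library 1 and 61.1% without wild type library 3. Rescaling without mitochondrial genes moved the median of all genes in the IL-33 set to 0.12. Of 18 members called in the IL-33 set, 11 were called under all alternatives, and of 9 in the difference, 5. Of 9 called in the PAD4 set 0 were, since 0 genes passed there with no filter.

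Nothing in the labels says whether the replicate numbers pair the libraries. Deviations of same-numbered libraries from their group means correlated at -0.02, -0.11 and -0.15 in the PAD4 set and -0.01, 0.13 and 0.00 in the IL-33 set. These values cannot decide it, since the deviations of 3 libraries from their own mean are tied to each other. With a replicate block 951 genes were higher and 1033 lower in the PAD4 set, with 8 members higher and 1 lower. In the IL-33 set the block gave 3065 and 2271 genes, with 10 members higher and 7 lower, and for the difference 941 and 878 genes, with 3 members higher and 6 lower. The block ended the calls of Ldha in the IL-33 set (adjusted p = 0.0761), of Tpi1 (0.134) and Gapdh (0.0759), Cebpb (0.0589) and Ddit4 (0.102) in the difference, and of Ppargc1a (0.0699), Txnip (0.223) and Cebpb (0.0996) in the PAD4 set. In the difference it added Slc2a5 as higher (0.0423) and Khk as lower (0.0453), so the members behind the counts of 3 and 6 changed. Depth is unknown, so what it limits cannot be given.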

Other observations

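The 2 wild type groups, which the labels put through the same protocol, had different shares of the 2 glucose 6-phosphatase genes within a library. In the summed G6pc and G6pc3 FPKM the share of G6pc was 7.23, 2.00 and 10.2% in PAD4 knockout kidneys and 8.42, 14.3 and 10.4% in their wild type kidneys. It was 70.7, 65.0 and 68.2% in kidneys labelled IL-33 knockout and 66.7, 80.2 and 63.8% in their wild type kidneys. The share does not depend on how a library was scaled, but batch and set coincide and the tables were made separately. Fbp1 was listed at 10.4, 17.4 and 8.15 FPKM in PAD4 set wild type kidneys and 330.4, 304 and 234 FPKM in IL-33 set wild type kidneys, levels that come from tables normalized separately.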
